A study of Homo sapiens with 6 samples.

Results

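The hnRNP A, B and D type genes encode RNA-binding proteins that coat newly made transcripts in the nucleus, and 7 of them were followed here: HNRNPA0, HNRNPA1, HNRNPA2B1, HNRNPA3, HNRNPAB, HNRNPD and HNRNPDL. They were chosen by gene symbol among the 61806 genes listed, with their pseudogene copies left out, and all 7 had reads in every library. Each group held 3 biological replicates of MG63, an established human osteosarcoma line. The shFTO cells carried a stable short hairpin against FTO, and the shNC cells are labelled as the control. How many hairpins or clones stood behind each group is not given in the sources used here. FTO is an enzyme that strips methyl groups off N6-methyladenosine (m6A) in RNA, and the design asked which transcripts respond to its knockdown.

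Proteins of this family carry a pair of RNA recognition motifs followed by a glycine-rich tail. The A-type proteins are best known for repressing splice sites in opposition to SR proteins, and HNRNPA2B1 has also been described as a nuclear reader of m6A. The D-type proteins bind AU-rich elements in messenger RNA and influence its decay. Several of these genes hold down their own expression through alternative splicing of their transcripts.

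Poly(A) RNA was sequenced with strand information, and the values were FPKM, which are reads scaled to exonic gene size and to the reads of the library. Means are given with the SD of the 3 libraries of a group. Whole reads could be recovered from them, and a library held 93629 to 106245 reads over 3208 to 3435 genes with at least 1 read. That is shallow for RNA sequencing, and whether the table holds all reads of each library is not given in the sources used here, so read numbers describe the table alone. FTO itself was listed at 0 in all 6 libraries. A count of 0 allows up to 3 reads, which corresponds to 1.32 to 1.5 FPKM depending on the library, so FTO gives no check of the group labels here. Of 8 mesenchymal and bone lineage markers all 8 had reads, at 75.3 to 98.9 per 100000 reads in shFTO and 70.5 to 84.2 in shNC, and together they held 491 of 592760 reads. Blood markers had reads for 0 of 5 genes. Endothelial markers had reads for 1 of 3, with CDH5 and VWF at 0. Epithelial markers had reads for 2 of 5, at 0 to 3.77 per 100000 reads in shFTO and 0 to 1.07 in shNC, with EPCAM, CDH1 and KRT19 at 0. The part of these markers in the results below was not tested.

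Members of the family carry the RNP1 stretch, the conserved core of each RNA recognition motif that touches RNA. A search of the translated coding sequences in GENCODE release 29 for a fixed pattern found 2 matches in 6 of the 7 genes and 1 in HNRNPA0. A stretch that departs from the pattern is missed, so the matches do not count the motifs of a protein. The first match of every gene is given here, read in frame 5′ to 3′, because all 7 genes have one. HNRNPA3 is given in lower case, and in the other genes capitals mark bases that differ from it.
HNRNPA0: CgTTgctttggCttCgtgacCtaC
HNRNPA1: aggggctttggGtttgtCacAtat
HNRNPA2B1: agAggAtttggttttgtAacttTt
HNRNPA3: aggggctttggttttgtgacttat
HNRNPAB: agAggGtttggGtttAtCCTGtTC
HNRNPD: aggggTtttggCtttgtgCTAtTt
HNRNPDL: agAggAtttggAtttgtgCTttTC
HNRNPA1 differed from HNRNPA3 at 3 of the 24 bases, HNRNPA2B1 at 4, HNRNPD at 6, HNRNPA0 and HNRNPDL at 7 and HNRNPAB at 10. The stretch began between codon 48, in HNRNPA0, and codon 189, in HNRNPDL. Among whole coding sequences HNRNPA1, HNRNPA2B1 and HNRNPA3 were identical at 72.1% to 76.2% of aligned bases, and HNRNPAB, HNRNPD and HNRNPDL at 68.6% to 70.3%. HNRNPA0 was identical to the other 6 at 57.1% to 65.1% of aligned bases.

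In the annotation HNRNPA0 had 1 exon and 1 transcript (GRCh38 chromosome 5, 137745651 to 137754363, minus strand). HNRNPA2B1 (chromosome 7, 26171151 to 26201529, minus strand) had 9 transcripts, and HNRNPA1 (chromosome 12, 54280193 to 54287088, plus strand) had 14. HNRNPA3 lies on chromosome 2 (177212694 to 177223959, plus strand) and HNRNPAB on chromosome 5 (178204533 to 178211163, plus strand). HNRNPD (82352498 to 82374503) and HNRNPDL (82422565 to 82430462) are neighbours on the minus strand of chromosome 4, separated by 48.1 kb. Other genes overlapped 5 of the 7 loci, and none of those 7 overlapping genes had more than 14 reads in all.

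Near-identical copies elsewhere in the genome limit how firmly reads can be given to 2 of these genes. Of the transcript of HNRNPA1 with the longest coding sequence, 56.8% of its stretches of 100 bases were also found in transcripts of other genes, and for HNRNPA3 the share was 34.9%. For HNRNPAB it was 5.72%, all of it shared with PHYKPL, which overlaps it on the opposite strand and had 1 read. For HNRNPA0, HNRNPA2B1, HNRNPD and HNRNPDL it was 0. Matches on either strand were counted. The read length is not given in the sources used here, and at 50 and 150 bases the shares were 67.6% and 50.1% for HNRNPA1 and 52.4% and 22.2% for HNRNPA3. The most-read copy, the processed pseudogene HNRNPA3P6 (chromosome 3, 75214631 to 75215636), matched HNRNPA3 at 99.6% of 1006 aligned bases. Gaps, which that share leaves out, took 54 of the 1060 alignment columns. A pair of stretches of 60 bases shows how little separates the 2 transcripts outside the gaps. It is the part of the HNRNPA3 coding sequence, from base 579 to base 638, with the most mismatches in any ungapped window of that length, and capitals mark the 2 bases that differ.
HNRNPA3: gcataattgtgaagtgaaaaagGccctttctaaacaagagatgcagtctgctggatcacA
HNRNPA3P6: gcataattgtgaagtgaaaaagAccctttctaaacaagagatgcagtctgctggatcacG
The longest run with no difference between these transcripts was 519 bases. HNRNPA1L3, the most-read copy of HNRNPA1 (chromosome 16, 51553436 to 51647132), matched HNRNPA1 at 99.3% of 1016 aligned bases. That share leaves out gaps too, which took 156 of 1172 alignment columns.

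The motif GGACT, a frequent setting of m6A in messenger RNA, was counted on the transcript strand of the same transcripts. HNRNPA0 held 8 matches, HNRNPD and HNRNPDL 4 each, HNRNPA1 2 and HNRNPA3 1, while HNRNPA2B1 and HNRNPAB held none. Per kilobase the matches ran from 0 to 1.32, against a median of 0.939 over 19684 coding genes, of which 87.5% held at least 1. A match is only a run of letters, and methylation was not measured.

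The 7 genes differed in level by far more than the libraries differed from each other. Together they took 7.52% of all reads, and HNRNPA3 and HNRNPA2B1 alone were the 2nd and 3rd most-read genes of the whole table, with 20845 and 19270 reads. HNRNPD had 2184 reads, HNRNPDL 1108, HNRNPA1 776, HNRNPAB 272 and HNRNPA0 147. In the same table ACTB had 75 reads and GAPDH 88, fewer than any of the 7 genes. Ranks and levels here describe the table and are not taken as abundance in the cells. On the FPKM scale, which allows for length, HNRNPA3 averaged 5423 ± 228 FPKM in shFTO and 5315 ± 193 in shNC (SD, n = 3 each). HNRNPA3 stood 2.04-fold above HNRNPA2B1 in shFTO and 2.13-fold above it in shNC. HNRNPA2B1 in turn stood 5.09-fold above HNRNPD in shFTO and 4.7-fold above it in shNC. Next came HNRNPD, then HNRNPDL, with group ranges that did not overlap. HNRNPA1 and HNRNPAB could not be placed in order, since their values overlapped in both groups. HNRNPA0 was lowest in each of the 6 libraries.

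FPKM was divided by all exonic bases annotated for a gene, which came to 12613 for HNRNPA2B1 and 6697 for HNRNPA1. The transcripts with the longest coding sequence measured 3664 and 1842 bases. For HNRNPAB the corresponding sizes were 2118 and 1796 bases, so the order of levels leans on the annotation used.

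**Figure D1:**
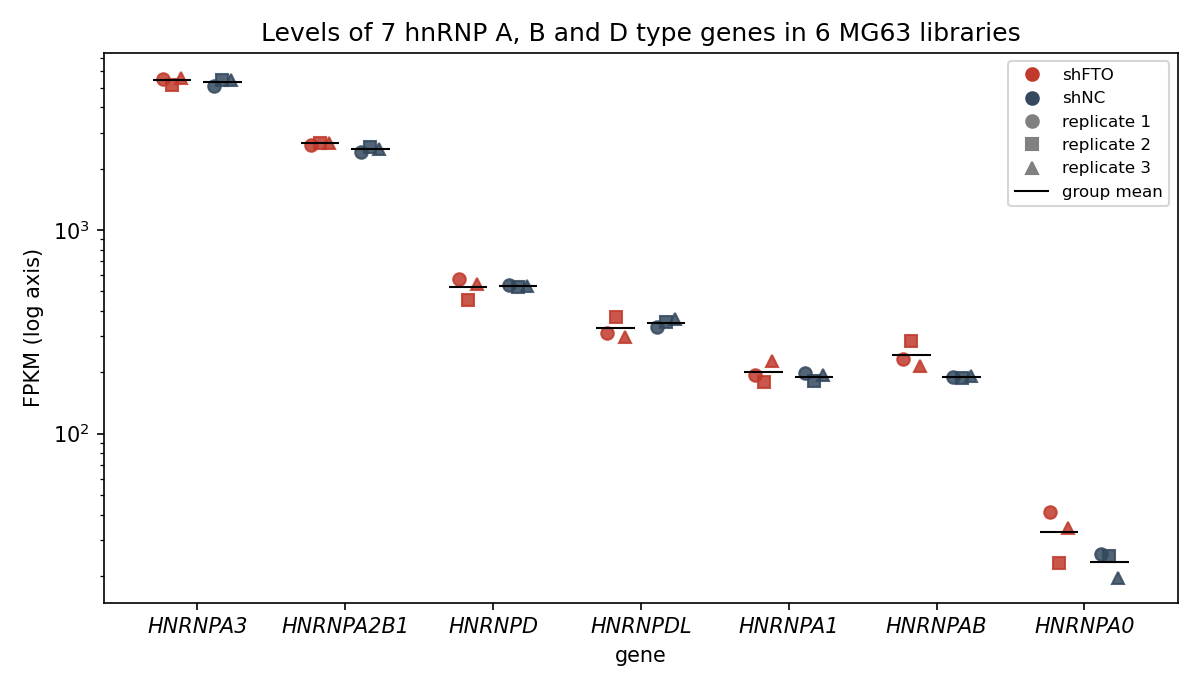
FPKM of each gene on a log axis in the 3 shFTO libraries (left, red) and the 3 shNC libraries (right, dark), with replicates by symbol and a bar at the group mean. HNRNPA3 and HNRNPA2B1 stand at 2418 FPKM or more in every library, HNRNPA0 stays at or below 41.05 FPKM, and the 2 groups lie close together for every gene.

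The comparison of shFTO with shNC gave no call among the 7 genes. In limma on log2(FPKM + 1), with Benjamini-Hochberg adjustment over the 4932 genes averaging 1 FPKM or more in either group, 0 of 7 genes passed an adjusted p of 0.05. Over all genes 2 passed, or 0.0406%. All 7 genes passed the filter. Their log2 changes ran from -0.10 for HNRNPDL to 0.45 for HNRNPA0, with a median of 0.06, where the median over all tested genes was 0.00. At an unadjusted p under 0.05 limma held 1 of the 7, HNRNPAB, against 3.85% of tested genes. A quasi-Poisson fit to the recovered reads, run on 1021 genes with at least 30 reads, called 0 of 7 and 0 of all, and at an unadjusted p under 0.05 it held HNRNPA2B1 and 4.9% of genes. In a bulk extract, a change in the number of cells with a transcript and a change in its amount per cell cannot be told apart.

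HNRNPA2B1, described as an m6A reader, had 2614, 2679 and 2679 FPKM in shFTO replicates 1, 2 and 3, against 2418, 2567 and 2494 FPKM in shNC replicates 1, 2 and 3. All 3 shFTO libraries were above all 3 shNC libraries. The reads behind these values were 3503, 3179 and 3496 in shFTO and 2877, 3270 and 2945 in shNC. The group means differed by 1.07-fold, with a log2 change of 0.09 (SE 0.06, limma adjusted p = 0.772). In the quasi-Poisson fit the fold was 1.07 with an unadjusted 95% interval from 1.002 to 1.13 (adjusted p = 0.938). The limma interval of the fold ran from 0.982 to 1.16. With upper-quartile scaling, which shifts the median of all genes to 0.12, the log2 change was 0.21 (SE 0.09, limma adjusted p = 0.759). Leaving out each library in turn gave ratios of group means from 1.05 to 1.08.

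HNRNPAB, which encodes a D-type relative that binds single-stranded nucleic acids, had 231, 286 and 214 FPKM in shFTO replicates 1, 2 and 3, against 190.2, 187 and 192 FPKM in shNC. Here too no shFTO library overlapped the shNC libraries. Far fewer reads stood behind the values, namely 52, 57 and 47 in shFTO and 38, 40 and 38 in shNC. The means were 244 ± 37.5 FPKM in shFTO and 189.6 ± 2.36 in shNC (SD, n = 3 each). The shNC libraries lay closer together than counting error alone would give, with a coefficient of variation of 1.25% where the mean read number over the 6 libraries gives 14.85%. The log2 change was 0.35 (SE 0.16, limma adjusted p = 0.772), and the unadjusted limma interval of the fold ran from 1.013 to 1.605. In the quasi-Poisson fit the fold was 1.28 with an unadjusted interval from 0.923 to 1.77 (adjusted p = 0.938), so only the limma interval left out 1. Without shFTO replicate 2, its highest library, the ratio of group means was 1.18.

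Such a separation was found for 2 of the 7 genes, both higher in shFTO. Among 705 genes averaging 10 reads or more a library, groups did not overlap for 9.79%, with 5.11% higher in shFTO and 4.68% lower. The shares among the 150 genes averaging 100 reads or more were 10%, 6.67% and 3.33%, and among all 4932 tested genes 6.59%, 2.9% and 3.69%. An exact two-sided permutation of 3 against 3 libraries cannot give a p below 0.1 for a single gene. Since the genes were few and were picked with results known, no p was attached to the count.

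**Figure D2:**
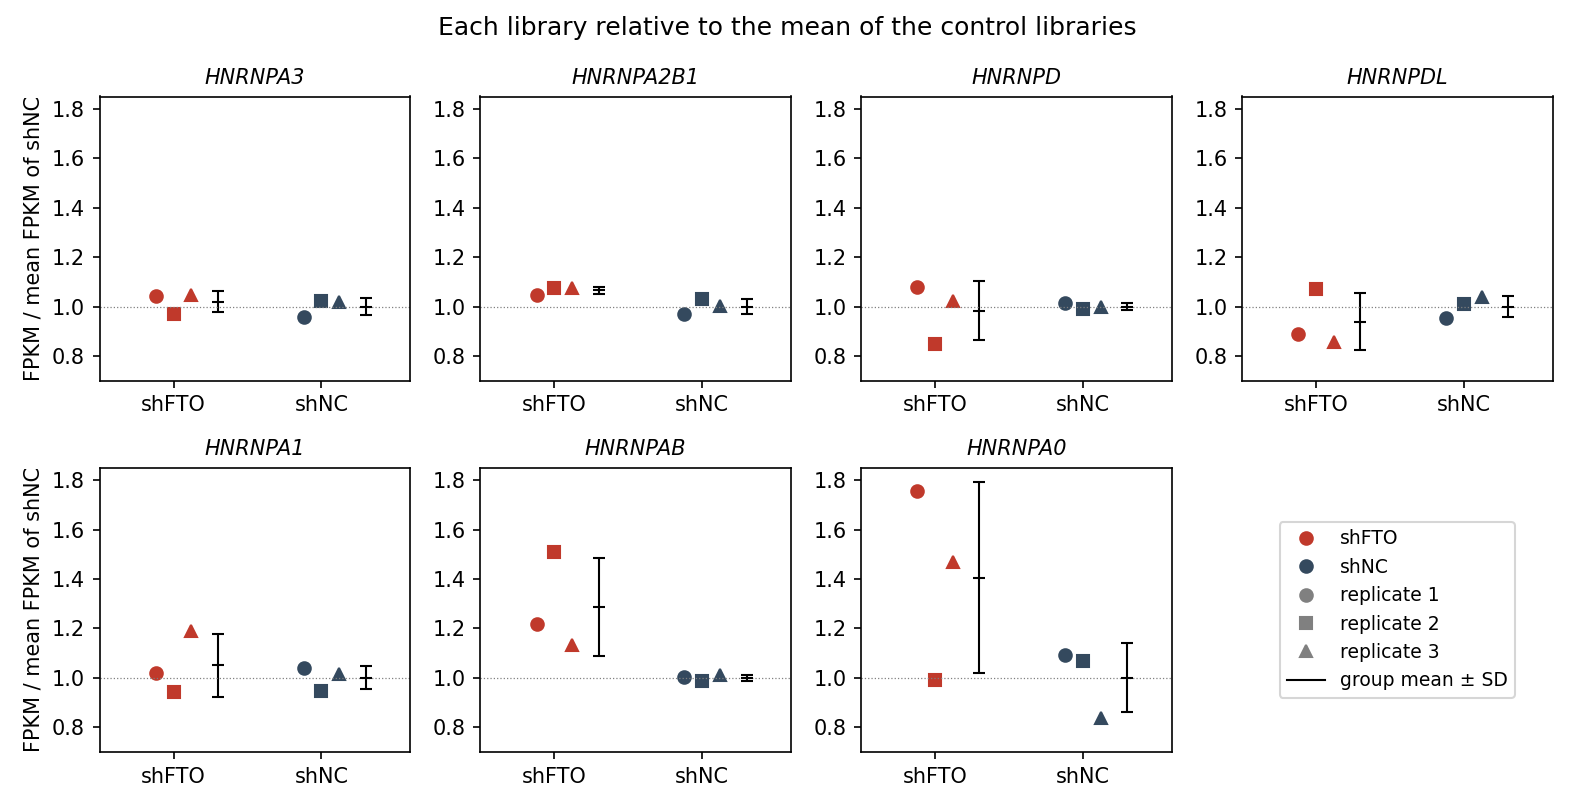
FPKM of each library divided by the mean FPKM of the shNC libraries, for each of the 7 genes, with shFTO on the left, shNC on the right and the group mean ± SD beside each group (n = 3). The shFTO libraries of HNRNPA2B1 and HNRNPAB lie above all shNC libraries, and the groups of the other 5 genes overlap.

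HNRNPA3, with the highest FPKM of the 7 genes, had 5534, 5161 and 5574 FPKM in shFTO replicates 1, 2 and 3, against 5093, 5435 and 5418 FPKM in shNC. The groups overlapped, with shNC replicate 1 lowest and shFTO replicate 2 next. Its log2 change was 0.03 (SE 0.05, limma adjusted p = 0.856), and the limma interval ran from 0.957-fold to 1.09-fold. The change took the other sign, at -0.0017, without shNC replicate 1. The spread between libraries of a group was 5.22 times the variance that counting error gives, the highest such ratio among the 7 genes.

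HNRNPA1, the splicing repressor after which the A type is named, had 194, 179 and 227 FPKM in shFTO replicates 1, 2 and 3, against 198, 180.4 and 193 FPKM in shNC. The highest and the lowest value were both in shFTO. The log2 change was 0.06 (SE 0.17, limma adjusted p = 0.925), with a fold interval from 0.826 to 1.32, and it was -0.03 without shFTO replicate 3. Its libraries spread by 1.12 times the variance of counting.

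HNRNPA0, whose protein binds AU-rich elements, had 41.05, 23.2 and 34.4 FPKM in shFTO replicates 1, 2 and 3, against 25.55, 25 and 19.6 FPKM in shNC. shFTO replicates 1 and 3 were above all of shNC, and shFTO replicate 2 lay within the range of shNC. These values came from 88 reads in shFTO and 59 in shNC. The log2 change of 0.45 (SE 0.38, limma adjusted p = 0.772) had a fold interval from 0.798 to 2.33, which at this depth holds both a decrease and a 2-fold increase. Without shFTO replicate 1 the log2 change was 0.27, and without shFTO replicate 2 it was 0.67.

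HNRNPD, also called AUF1, promotes or delays the decay of AU-rich messages. It had 573, 451 and 543 FPKM in shFTO replicates 1, 2 and 3, against 539, 525 and 529 FPKM in shNC. The shNC libraries fell within the range of the shFTO libraries, whose coefficient of variation was 12.2% against 1.36% in shNC. The mean read number over the 6 libraries gives 5.24%, so the shNC libraries lay closer together than counting error alone would give. The log2 change was -0.03 (SE 0.12, limma adjusted p = 0.952), with a fold interval from 0.832 to 1.15. Without shFTO replicate 2, which was lowest, it was 0.07.

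HNRNPDL, the close relative of HNRNPD, had 312, 375 and 299 FPKM in shFTO replicates 1, 2 and 3, against 334, 353 and 363 FPKM in shNC. The groups overlapped, with the highest and the lowest value both in shFTO. The log2 change was -0.10 (SE 0.14, limma adjusted p = 0.822), and the fold interval ran from 0.772 to 1.13. It was -0.20 without shFTO replicate 2 and -0.03 without shFTO replicate 3.

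**Figure D3:**
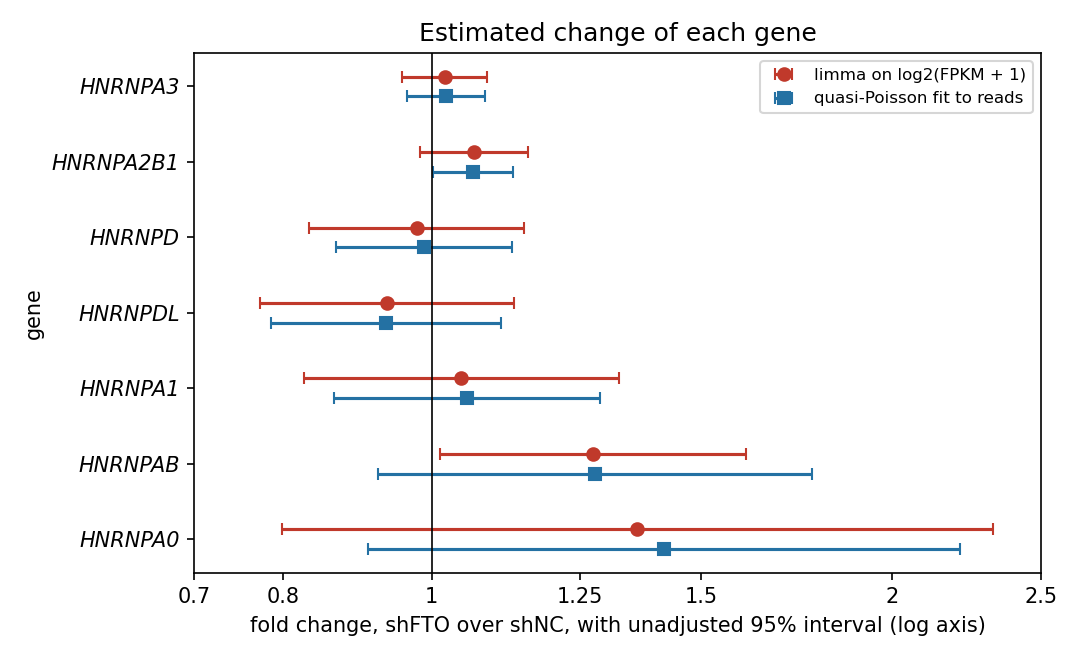
Fold change of each gene, shFTO over shNC, on a log axis, with unadjusted 95% intervals from limma (red circles) and from the quasi-Poisson fit to reads (blue squares). The intervals are narrowest for HNRNPA3 and HNRNPA2B1 and widest for HNRNPA0, and no gene passed an adjusted p of 0.05 in either fit.

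The unadjusted limma intervals excluded a 1.5-fold change in either direction for HNRNPA1, HNRNPA2B1, HNRNPA3, HNRNPD and HNRNPDL. For HNRNPAB and HNRNPA0 they excluded a 1.5-fold decrease but not a 1.5-fold increase. In the sum of the 7 genes, shFTO had 7659 ± 164 and shNC 7373 ± 210 of 100000 reads (SD, n = 3 each). These sums overlapped between groups, at 7477 to 7796 in shFTO and 7136 to 7536 in shNC. Without HNRNPA3 the sums were 4112 ± 34.4 in shFTO and 3896 ± 88.4 in shNC and did not overlap. With both HNRNPA3 and HNRNPA2B1 left out they were 760.3 ± 33.4 in shFTO and 752 ± 7.46 in shNC and did overlap.

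**Figure D4:**
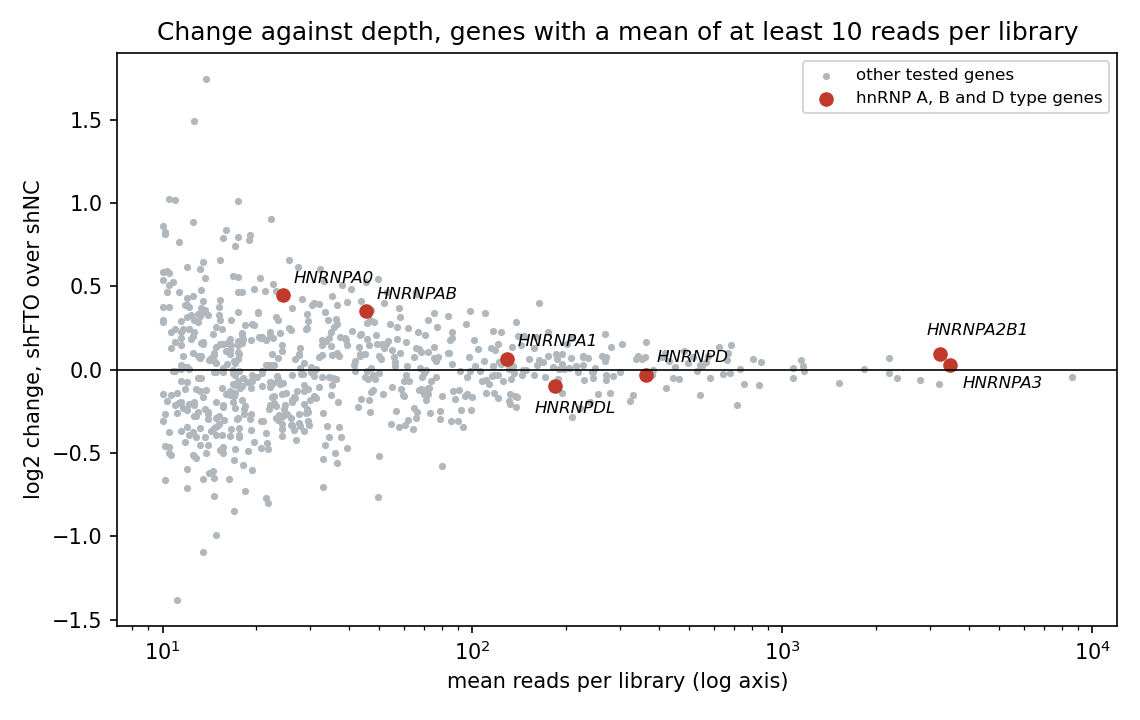
Log2 change of shFTO over shNC from limma against the mean number of reads per library (log axis), for genes averaging 10 reads or more, with the 7 hnRNP genes in red. Among the 150 genes averaging 100 reads or more the changes run from -0.28 to 0.40, and the 5 hnRNP genes in that class run from -0.10 to 0.09.

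Copies of the family, as listed under the members' symbols, took 2447 reads, and 14 of 99 such copies had reads. HNRNPA3P6 had 1979 reads and HNRNPA1L3 had 371, and the remaining copies had 97 together. A processed pseudogene on chromosome 1 (113449700 to 113450728), listed by its ID ENSG00000232499 and described there as a copy of HNRNPA3, had a further 864 reads. Copies listed by symbol held 8.92% of the reads of HNRNPA3 and its copies, and 34.3% of those of HNRNPA1 and its copies. With ENSG00000232499 the share for HNRNPA3 was 12.2%. HNRNPAB, HNRNPD and HNRNPDL had 1, 2 and 4 listed copies with no reads, and HNRNPA0 and HNRNPA2B1 had no copy listed under their names.

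HNRNPA3P6 had 3116, 3339 and 3007 FPKM in shFTO replicates 1, 2 and 3, against 3540.0, 3445 and 3514 FPKM in shNC. All shFTO libraries were below all shNC libraries, which was not so for HNRNPA3 itself. Among the 150 genes averaging 100 reads or more, 3.33% were separated in this direction. The shNC libraries of HNRNPA3P6 lay closer together than counting error alone would give, with a coefficient of variation of 1.4% against 5.51%. The log2 change was -0.15 (SE 0.05, limma unadjusted p = 0.00819, adjusted p = 0.772). In the quasi-Poisson fit the interval of its fold ran from 0.784 to 1.03. The pseudogene took 8.23% ± 0.729 of the reads of the pair in shFTO and 9.2% ± 0.404 in shNC (SD, n = 3 each), and these shares overlapped, since shFTO replicate 2 stood at 9.05% and shNC replicate 2 at 8.88%.

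ENSG00000232499 had 1406 ± 128 FPKM in shFTO and 1434 ± 89.5 in shNC, with overlap and a log2 change of -0.03 (SE 0.08, limma adjusted p = 0.925). With the reads of its copies added, HNRNPA3 had a log2 change of 0.01 (limma adjusted p = 0.942), and 0.01 with ENSG00000232499 also added (limma adjusted p = 0.951). HNRNPA1L3 had 406, 249 and 397 FPKM in shFTO replicates 1, 2 and 3, against 380.1, 283 and 222 FPKM in shNC, which overlap. HNRNPA1 itself was below this copy in all 6 libraries on the FPKM scale, with a ratio of HNRNPA1 to HNRNPA1L3 of 0.59 ± 0.123 in shFTO and 0.676 ± 0.177 in shNC (SD, n = 3 each). In reads the order was the reverse in all 6 libraries, with 776 reads for HNRNPA1 and 371 for HNRNPA1L3 in all. The exonic sizes that FPKM was divided by were 6697 and 1924 bases, so the FPKM order leans on them. Adding the copies moved the log2 change of HNRNPA1 to 0.13 (limma adjusted p = 0.773).

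**Figure D5:**
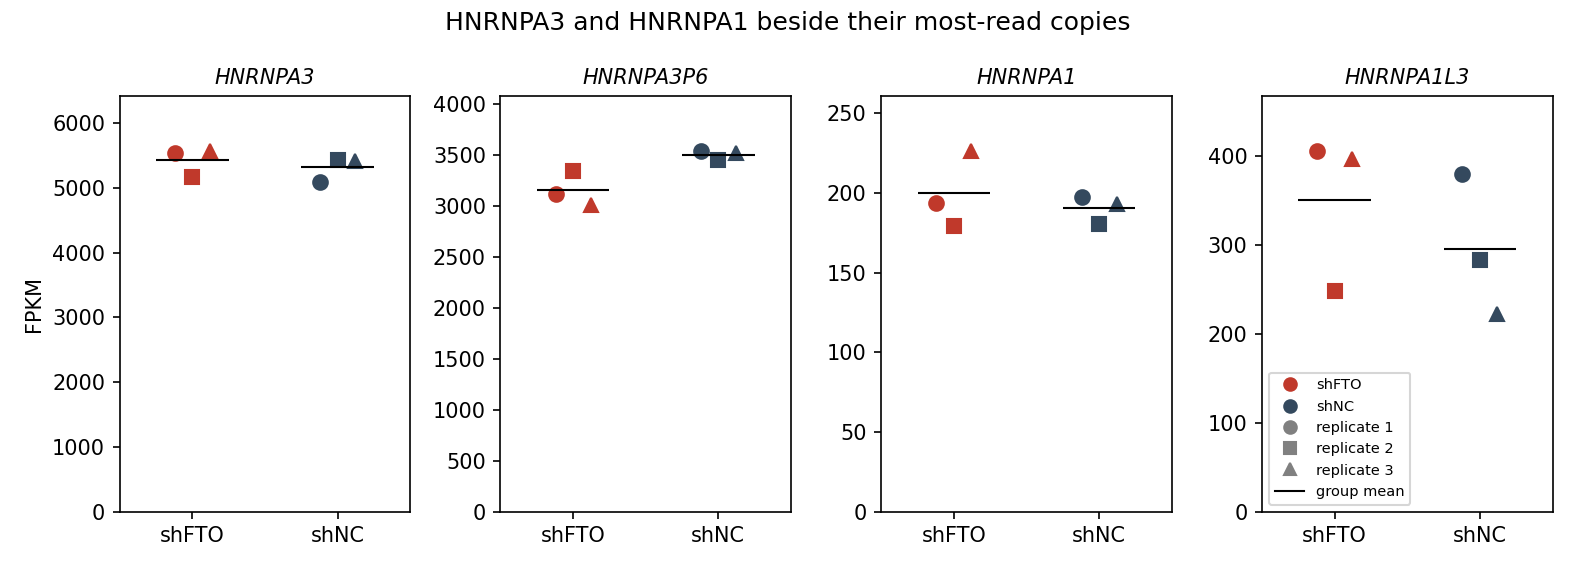
FPKM per library of HNRNPA3, its copy HNRNPA3P6, HNRNPA1 and its copy HNRNPA1L3, with shFTO on the left, shNC on the right and a bar at each group mean; each panel has its own axis from 0. HNRNPA3P6 lies at 3007 to 3339 FPKM in shFTO, below the 3445 to 3540.0 FPKM of shNC, while the groups of the other 3 genes overlap.

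Genes that work with this family were read from lists, and 0 of their members were called in either direction. Of 19 other hnRNP genes all 19 were tested, with 8 estimates above 0, 11 below and a median log2 change of -0.02. Groups did not overlap for 2 of the 19, both higher in shFTO, against 6.59% of all tested genes in either direction. HNRNPH3, 1 of these 2, had 204 ± 7.23 FPKM in shFTO and 163 ± 39 in shNC (log2 change 0.35, limma adjusted p = 0.772). The most-read of the 19, HNRNPH1, a regulator of G-rich splice sites, had 1247 ± 83.8 and 1253 ± 86.8 FPKM in shFTO and shNC. HNRNPUL2 had 0 reads in shFTO and 6 in shNC. Summed, the other hnRNP genes had 5923 ± 173 of 100000 reads in shFTO and 5892 ± 14.8 in shNC.

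The SR and TRA2 factors promote splice sites that A-type proteins repress, and 12 of 14 were tested, with 6 estimates above 0, 6 below and a median log2 change of 0.00. SRSF2 had 975 ± 76.8 FPKM in shFTO and 839 ± 48.3 in shNC, a log2 change of 0.22 (SE 0.09, limma adjusted p = 0.772). SRSF7 had 533 ± 8.88 FPKM in shFTO and 479 ± 36.9 in shNC, with no overlap between groups (log2 change 0.16, SE 0.11, limma adjusted p = 0.772). Of the 12 tested genes 1 was separated in this way, against 6.59% of all tested genes. SRSF1, the classical opponent of HNRNPA1 and the most-read of the list, had 760.2 ± 67.7 FPKM in shFTO and 786 ± 21.1 in shNC.

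Of the related genes with a pair of RNA recognition motifs, 3 of 4 were tested and all 3 had estimates above 0, with a median log2 change of 0.08. TARDBP, encoding the nuclear RNA-binding protein TDP-43, had 216 ± 28.2 FPKM in shFTO and 210.3 ± 20 in shNC. MSI2 had 23.4 ± 1.98 FPKM in shFTO and 21.9 ± 0.811 in shNC, and DAZAP1 had 8 reads in shFTO and 4 in shNC.

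AU-rich elements are the targets of HNRNPD and HNRNPA0. Among other proteins that bind them, 6 of 7 were tested, with 2 estimates above 0, 4 below and a median log2 change of -0.12. Over the 2 genes of that list averaging 10 reads or more a library the median was 0.35. TIAL1, an RNA-binding protein of stress granules, had 309 ± 30.8 FPKM in shFTO and 322 ± 21.1 in shNC. ZFP36L1, which promotes decay, had 43 reads in shFTO and 25 in shNC, and ZFP36L2 had 5 and 8 reads in shFTO and shNC. Among transcripts known to carry AU-rich elements 9 of 13 were tested, 4 above 0 and 5 below, with a median of -0.07, or -0.42 over the 2 genes averaging 10 reads or more. PTGS2, encoding an inducible cyclooxygenase, had 35 reads in shFTO and 14 in shNC (log2 change 1.42, SE 0.58, limma adjusted p = 0.772). Its groups did not overlap. Of the 9 tested genes 1 was separated as higher in shFTO and 1 as lower, against 2.9% and 3.69% of all tested genes. The chemokine gene CXCL8 had 34 reads in shFTO and 54 in shNC (log2 change -0.76, SE 0.33, limma adjusted p = 0.772). VEGFA, a vascular growth factor gene, had 68 reads in shFTO and 65 in shNC.

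Of 7 transcripts whose splicing HNRNPA1 and HNRNPA2B1 are known to steer, 4 were tested, 1 estimate above 0 and 3 below, with a median log2 change of -0.65, or -0.10 over the 2 genes averaging 10 reads or more. PKM, a pyruvate kinase gene with a pair of exclusive exons, had 72 reads in shFTO and 90 in shNC, and MAX, encoding the partner of MYC, had 134 and 111 reads in shFTO and shNC. MST1R had 0 reads in shFTO and 4 in shNC. The values are per gene, so exon use was not measured. Of the genes that import or modify these proteins, 6 of 7 were tested, 4 above 0 and 2 below, with a median of 0.08. TNPO1, encoding the importer of HNRNPA1, had 52.5 ± 12.5 FPKM in shFTO and 51.3 ± 4.72 in shNC, and MKNK2 had 0 reads in shFTO and 2 in shNC.

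HNRNPA2B1 is reported to aid the cutting of primary microRNAs by DROSHA and DGCR8. In the list of microRNA processing genes 4 of 8 genes were tested, 2 above 0 and 2 below, with a median log2 change of 0.04, or 0.28 over the 2 genes averaging 10 reads or more. DGCR8 had 59 reads in shFTO and 58 in shNC, DICER1 had 38 and 22 in shFTO and shNC, and DROSHA had 0 reads in shFTO and 3 in shNC.

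For each of the 7 genes the most similar profile was sought among 145 other genes that averaged 100 reads or more a library, as Pearson's r of log2(FPKM + 1) over the 6 libraries. HNRNPA2B1 was most like SRSF7 (r = 0.975), HNRNPA3 like RPL37 (r = 0.944), HNRNPA0 like GNAS (r = 0.930), HNRNPAB like SON (r = 0.912), HNRNPD like SRSF1 (r = 0.902), HNRNPA1 like H2AZ1 (r = 0.894) and HNRNPDL like NUFIP2 (r = 0.883). These are the highest of 145 values each, over libraries that share depth and group, and they describe these 6 libraries only.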

How the data were processed

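The deposited values were FPKM per gene, calculated by the authors and rounded to 2 decimals, with exonic size, position and strand. The genome build GRCh38 is named, per the submitters' processing notes, along with HISAT2 2.2.1, StringTie 1.3.3b, HTSeq 0.6.1, DESeq2 1.50.2 and FastQC 0.10.1. Not given in the sources used here are step order, strand setting and the handling of reads with several matches.

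Columns were matched to samples by name. Library totals between 20000 and 200000 were searched for the one at which FPKM times size gave whole reads, and 100% of values above 0 were then whole within 0.05 read. The limit that 0 reads allow covers counting error only.

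The test was limma 3.58.1 (R 4.3.3, trend and robust moderation, group only) on log2(FPKM + 1), Benjamini-Hochberg adjusted over 4932 genes. The quasi-Poisson fit used a dispersion moderated along a trend with depth, never below counting error. Both were tested on simulated data with a dispersion of 1.8. That is below the dispersion used for each of the 7 genes, from 1.82 for HNRNPA0 to 4.68 for HNRNPA3. Among genes averaging 100 reads or more, limma found 16.1% of 1.25-fold and 57.1% of 1.5-fold changes. The quasi-Poisson fit found 47.9% and 93.8% of them. False calls per simulation were 2.4 and 5.8 in limma and 0.6 and 3.8 in the quasi-Poisson fit. At 2-fold, 89.6% of the quasi-Poisson intervals of genes averaging 100 reads or more held the true value, against 94.7% in limma. Over all changed genes, which averaged 10 reads or more, limma found 3.7% of 1.25-fold and 16.4% of 1.5-fold changes. The quasi-Poisson fit found 11.4% and 35.1% of those. Log2 changes at a pseudocount of 1 understate low genes.

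Genes and lists were chosen with earlier results of these data known. List genes named are those with the 2 smallest p and the most reads, and copies named have at least 100 reads; ENSG00000232499 was named after its values were seen. A list gene under this rule is not reported here. Sequences came from GENCODE release 29, in which 94.3% of gene IDs were found, and were aligned with Biopython 1.88; coding sequences stood in for the proteins planned.

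Alternatives were scaling by upper quartiles or by median ratios, limma-voom, a replicate block, each library left out, reads summed with copies (those without a symbol were added after seeing the data), a mean of 10 reads or more a library, no filter and a pseudocount of 0.1.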

Additional observations from a re-analysis of the deposited data

How the results depend on the processing

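No call arose among the 7 genes under 16 of 17 alternatives, over which their adjusted p ran from 0.678 to 0.992. The exception was limma-voom over 4932 genes, which called 2 members, HNRNPA2B1 (log2 change 0.082) and HNRNPA3 (0.040), and 11 genes in all. Its fitted spread fell below 0 at the most-read genes (-0.0404), so p values there have no meaning. Restricted to genes averaging 10 reads or more a library, an alternative chosen after seeing the data, limma-voom called 0 members and 0 genes (40 at an unadjusted p under 0.05).

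Signs turned in 5 of 119 values. Upper-quartile scaling, which shifts the median of all genes to 0.12, gave 0.084 for HNRNPD and 0.019 for HNRNPDL, both below that shift, 0.56 for HNRNPA0, 0.18 for HNRNPA1, 0.21 for HNRNPA2B1, 0.14 for HNRNPA3 and 0.47 for HNRNPAB, and a ratio of summed reads of 1.12 against 1.04. With 1 library left out, HNRNPA1 ran from -0.029 (without shFTO replicate 3) to 0.14, HNRNPA3 from -0.0017 (without shNC replicate 1) to 0.064 and HNRNPD from -0.10 to 0.071 (without shFTO replicate 2). The cause was not tested.

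The number of genes called was 2, against 7 with a pseudocount of 0.1, 9 with no filter, 0 among genes averaging 10 reads or more a library (31 at an unadjusted p under 0.05), 4 with upper-quartile scaling and 0 in the quasi-Poisson fit (50 at an unadjusted p under 0.05). It ran from 2 to 9 with 1 library left out (8 without shFTO replicate 1, 9 without shNC replicate 2, 7 without shNC replicate 3). With the replicate block it was 17, and 0 members. Same-numbered libraries showed little shared deviation (correlations -0.0029, 0.04 and -0.01). Counting error at this depth weakens such correlations, so they cannot decide whether the numbers pair the libraries. The main fit did not use the numbers as pairs.

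At this depth HNRNPA0 and HNRNPAB, with 147 and 272 reads, allow only large changes to be seen.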

Other observations

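HNRNPD and HNRNPDL lie next to each other on the same strand, and shFTO replicate 2 held the lowest HNRNPD value and the highest HNRNPDL value of all 6 libraries. The ratio of their FPKM was 1.84, 1.2 and 1.82 in shFTO replicates 1, 2 and 3, and 1.62, 1.49 and 1.46 in shNC replicates 1, 2 and 3. In that library the ratio rested on 296 reads of HNRNPD and 195 of HNRNPDL.

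The ratio of HNRNPA3 to HNRNPA2B1 FPKM was steadier, at 2.12, 1.93 and 2.08 in shFTO and 2.11, 2.12 and 2.17 in shNC. It also had less counting error, with at least 2877 reads of either gene in each library, against at most 425 of HNRNPD or HNRNPDL. The lowest ratio of HNRNPA3 to HNRNPA2B1 was again in shFTO replicate 2. The ratio of HNRNPAB to HNRNPA1 was 1.19, 1.6 and 0.947 in shFTO, against 0.961, 1.04 and 0.993 in shNC, and was highest in the same library.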
